A study of Mus musculus with 4 samples.

Results

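The chemokine family of the mouse was followed through the cells of 2 grafted tracheas. Its members were taken by symbol: every feature of the gene list named Ccl or Cxcl with a number, plus Cx3cl1 and Xcl1. This gave 44 of 30907 features, of which 32 had at least 1 UMI (a counted RNA molecule) in the cells kept and 12 had none. The features without a UMI were the copies of Ccl21a, Ccl21b and Ccl21c, Ccl19, Ccl27b, the Ccl27 copies and Ccl26.

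Both recipients were adult wild-type mice whose tracheal lining was injured with the detergent polidocanol (2%) and which were given 6000000 cells into the airway 5 hours later. One mouse, whose libraries carry the strain label 129 X1/S1, received iBCs, basal cells made in culture from embryonic stem cells, and was examined at 192 days. The other, labelled C57BL/6, received primary basal cells (primary BCs) and was examined at 69 days. These are the iBC recipient and the primary BC recipient of the labels, and they are called the mouse with iBCs and the mouse with primary BCs below. Live, Calcein Blue-positive cells of each trachea were sorted into a donor-derived (GFP-positive) and an endogenous (GFP-negative) library and profiled on the 10x Chromium system. The 4 groups, donor-derived and endogenous cells of the mouse with iBCs and donor-derived and endogenous cells of the mouse with primary BCs, therefore held 1 library each from 1 animal each. No difference was tested across animals, no p-value is given, and every interval covers counting error only. Donor cell kind, time, strain and animal differed together between recipients and cannot be told apart. The donors' genotype beyond GFP is not given in the sources used here, and the uninjured control trachea that the protocol mentions is not analysed here.

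Chemokines are small secreted proteins that guide leukocytes along a concentration gradient by binding G protein-coupled receptors. Airway epithelium releases some of them constantly and others only after signals such as interferon-gamma or NF-kB activation. Ccl20 and Ccl9 are also made by microfold cells, the epithelial cells that carry antigen across mucosal surfaces.

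After filtering, 6542 of 6784 barcodes were kept, 1354 to 1807 per library, at a median of 9324 to 14499.5 UMIs per cell, and no 2 libraries shared more than 1 barcode. The reporter EGFP stood at 65.4 and 612 CPM (UMIs per 1000000 UMIs of a summed group of cells) in the donor-derived libraries of the mice with iBCs and with primary BCs, and at 0.0962 and 8.04 CPM in their endogenous libraries. Chemokine UMIs amounted to 860 and 504 CPM in those donor-derived libraries and to 726 and 621 CPM in the endogenous ones. Cells were assigned to classes by marker RNA: 458 to 848 basal, 512 to 723 secretory and 172 to 362 ciliated cells per library. Cells of epithelial classes with at least 5 UMIs of Ccl20 plus Ccl9 were kept apart and are called Ccl20/Ccl9-high cells here: 47 donor-derived and 94 endogenous cells in the mouse with iBCs, and 38 donor-derived and 44 endogenous cells in the mouse with primary BCs. Immune cells numbered 0, 26, 2 and 68 in the same order, so almost all were endogenous. The 0 of 1576 donor-derived cells in the mouse with iBCs allows a share of up to 0.190% by the limit of 3 counts, or 0.234% by the exact Clopper-Pearson interval.

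The bases before the starts of 4 members are shown because these genes mark the strongest contrasts below: Ccl20 and Ccl9 define the separate cells, and Cxcl9 and Cxcl10 are the chemokines called higher in donor-derived basal cells. Each line gives the 250 bases before the RefSeq start (GRCm38.p6), 5′ to 3′ on the gene's own strand, at chr1:83116516-83116765 (plus) for Ccl20, chr11:83578637-83578886 (minus) for Ccl9, chr5:92328080-92328329 (minus) for Cxcl9 and chr5:92348890-92349139 (minus) for Cxcl10. Capitals mark the letters GGGANNNNCC, an NF-kB type motif, and GAAANNGAAA, an interferon-stimulated response type motif, searched on both strands.
Ccl20: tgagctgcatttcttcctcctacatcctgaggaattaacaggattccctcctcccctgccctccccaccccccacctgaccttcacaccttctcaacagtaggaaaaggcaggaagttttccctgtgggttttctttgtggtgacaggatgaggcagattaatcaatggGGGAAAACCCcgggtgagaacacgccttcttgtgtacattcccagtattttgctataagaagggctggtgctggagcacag
Ccl9: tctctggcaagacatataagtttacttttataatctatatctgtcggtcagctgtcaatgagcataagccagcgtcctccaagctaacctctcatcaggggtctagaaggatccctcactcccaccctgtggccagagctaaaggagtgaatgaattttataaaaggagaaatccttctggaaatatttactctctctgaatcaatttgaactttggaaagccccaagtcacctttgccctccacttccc
Cxcl9: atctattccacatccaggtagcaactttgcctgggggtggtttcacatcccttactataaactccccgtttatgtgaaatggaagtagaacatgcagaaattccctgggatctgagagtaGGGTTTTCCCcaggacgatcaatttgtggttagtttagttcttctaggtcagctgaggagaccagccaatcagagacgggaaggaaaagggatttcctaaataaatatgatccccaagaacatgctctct
Cxcl10: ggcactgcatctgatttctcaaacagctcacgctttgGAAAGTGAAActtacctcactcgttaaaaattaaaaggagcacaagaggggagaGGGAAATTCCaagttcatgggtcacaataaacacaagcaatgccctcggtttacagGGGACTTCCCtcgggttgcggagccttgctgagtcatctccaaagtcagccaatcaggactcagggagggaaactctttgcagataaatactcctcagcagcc
Ccl20 had 1 match to GGGANNNNCC, beginning 81 bases before the start, Cxcl9 had 1 at 130 bases and Cxcl10 had 2 at 159 and 103 bases. GAAANNGAAA was found before Cxcl10, at 213 bases, and not in the other 3 windows. The motifs did not overlap each other, and the window of Ccl9 held neither set of letters. Of 27025 mouse promoters, 17.3% held GGGANNNNCC and 3.04% GAAANNGAAA, against 11 and 3 of the 28 chemokine symbols with a promoter in the table. A match describes the letters and is no evidence of binding.

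Many members are neighbours in the genome (GRCm38): 12 of the 37 placed by the annotation lie on chromosome 11, 10 on chromosome 5, 5 on chromosome 4 and 4 on chromosome 8. Cxcl9 (chr5:92321347-92328079) and Cxcl10 (chr5:92346638-92348889) are adjacent, as are Ccl9 and Ccl6 on chromosome 11. Cx3cl1 lies between Ccl22 and Ccl17 on chromosome 8. Neighbours did not share one pattern: Ccl9 was found in epithelial and immune cells and Ccl6 mainly in immune cells, while Cx3cl1 was epithelial and Ccl17 and Ccl22 came from immune cells.

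**Figure D1:**
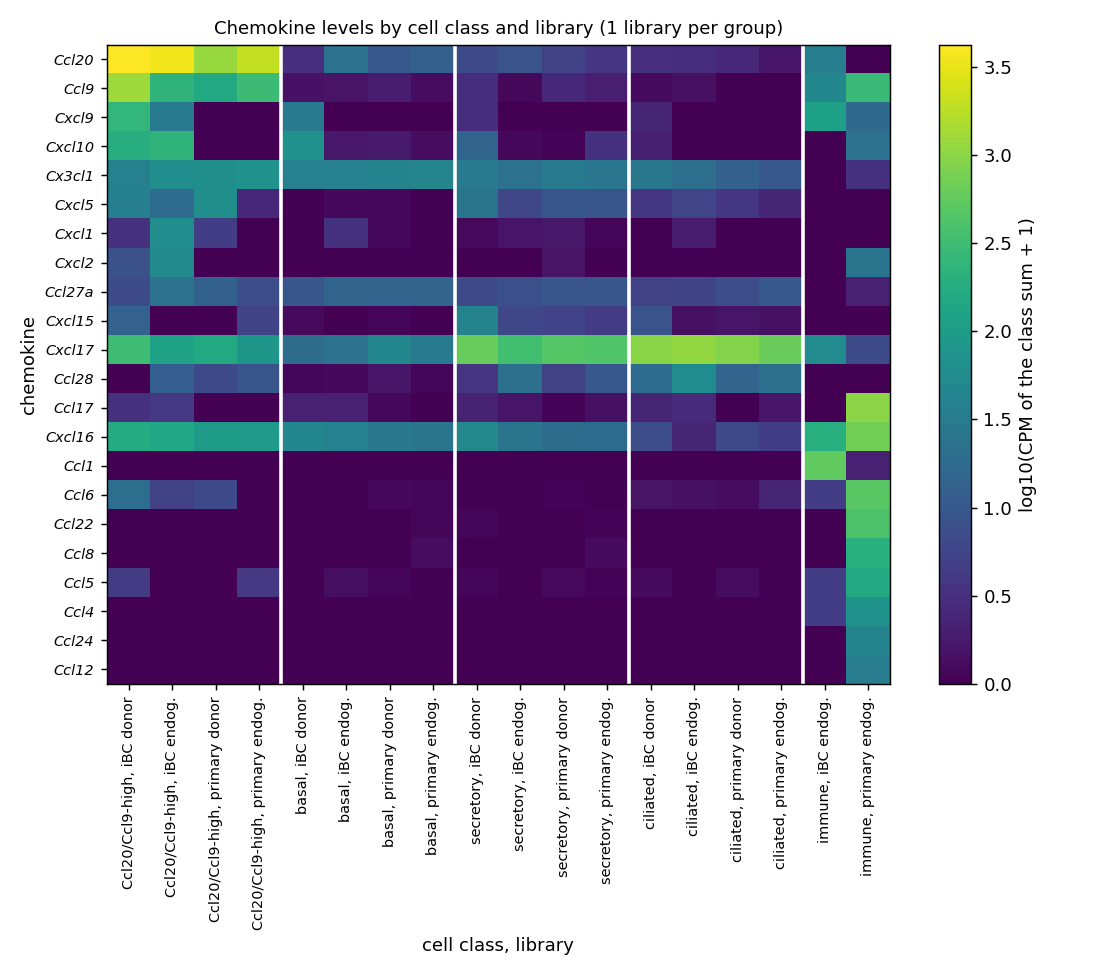
Levels of the 22 described chemokines (rows) in each cell class and library (columns), as log10 of CPM of the class sum plus 1; each library is 1 animal's cells and classes with fewer than 20 cells are left out. Cxcl17 fills the secretory and ciliated columns, Ccl20 and Ccl9 the columns of the cells chosen by these genes, and Ccl17, Ccl22, Ccl6 and Ccl8 the immune column of the mouse with primary BCs.

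Cxcl17, a mucosal chemokine that attracts myeloid cells, was the main epithelial chemokine by UMIs. In ciliated cells it stood at 968 CPM in donor-derived cells and 1083 CPM in endogenous cells of the mouse with iBCs, and at 896 CPM in donor-derived cells and 621 CPM in endogenous cells of the mouse with primary BCs. Secretory cells held 616, 343, 465 and 444 CPM of Cxcl17 in the same order, and basal cells 18.0, 22.2, 46.9 and 30.7 CPM. The order ciliated, secretory, basal was thus the same in all 4 libraries, with intervals that did not overlap. Cxcl17 made up 91.1% to 94.2% of chemokine UMIs in ciliated cells and 76.8% to 84.0% in secretory cells. A Cxcl17 UMI was found in 98.1% to 99.6% of ciliated cells, at a median of 11924 to 19468 UMIs per cell. In immune cells, which are not known as a source of it, the share was 7.35% in the mouse with primary BCs (median 11600.5 UMIs) and 19.2% in the mouse with iBCs (median 9321 UMIs). Basal cells of the mouse with iBCs had a Cxcl17 UMI in 12.7% of donor-derived cells and 11.8% of endogenous cells. These shares were below the 19.2%, and their Cxcl17 is not read as expression. That background is rough, since it rests on 26 immune cells of the endogenous library, and the donor-derived library had 0. In the mouse with primary BCs the basal shares, 23.3% and 21.4%, lay above the 7.35%, which rests on 68 immune cells of the endogenous library.

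Neither of the 2 recipients showed a called difference of Cxcl17. A member was called where 1 class sum reached 20 CPM, the levels differed at least 2-fold, and the interval of the ratio lay past 1.5-fold. Donor-derived over endogenous, the Cxcl17 ratio in the mouse with iBCs was 0.811 in basal (0.631 to 1.04), 1.80 in secretory (1.72 to 1.88) and 0.894 in ciliated cells (0.855 to 0.933). With primary BCs it was 1.53 (1.29 to 1.83), 1.05 (1.009 to 1.09) and 1.44 (1.37 to 1.52). The gene 4732471J01Rik overlaps Cxcl17 on the other strand, and strand use in counting is not given in the sources used here.

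Of the membrane-bound chemokines, Cx3cl1 was spread more evenly over basal, secretory and ciliated cells than Cxcl17, and Cxcl16 was low in ciliated cells. Cx3cl1, which is shed from the cell surface and binds Cx3cr1 on monocytes and macrophages, had 37.4 and 38.1 CPM in donor-derived and endogenous basal cells of the mouse with iBCs, and 41.3 and 44.5 CPM in those of the mouse with primary BCs. Its basal ratios were 0.983 (0.819 to 1.18) and 0.928 (0.792 to 1.09), and these intervals cover only the counting error of the sums. Donor-derived and endogenous secretory cells held 29.8 and 21.4 CPM of Cx3cl1 in the mouse with iBCs, and 29.4 and 25.7 CPM in the mouse with primary BCs. Cxcl16, the ligand of Cxcr6, reached 47.0 and 38.1 CPM in donor-derived and endogenous basal cells of the mouse with iBCs and 28.5 and 24.9 CPM in those of the mouse with primary BCs. Donor-derived and endogenous ciliated cells held 6.26 and 1.35 CPM of Cxcl16 in the mouse with iBCs. In the mouse with primary BCs they held 5.31 and 3.60 CPM. Immune cells held 58.7% of the Cxcl16 UMIs in the endogenous library of the mouse with primary BCs. Cxcl16 overlaps Zmynd15 on the other strand. The sheddases Adam10 and Adam17, which release both proteins, stood at 43.7 to 48.7 CPM and 25.9 to 29.9 CPM in basal cells of the 4 libraries, and no member of the shedding and trimming list was called in either recipient.

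**Figure D2:**
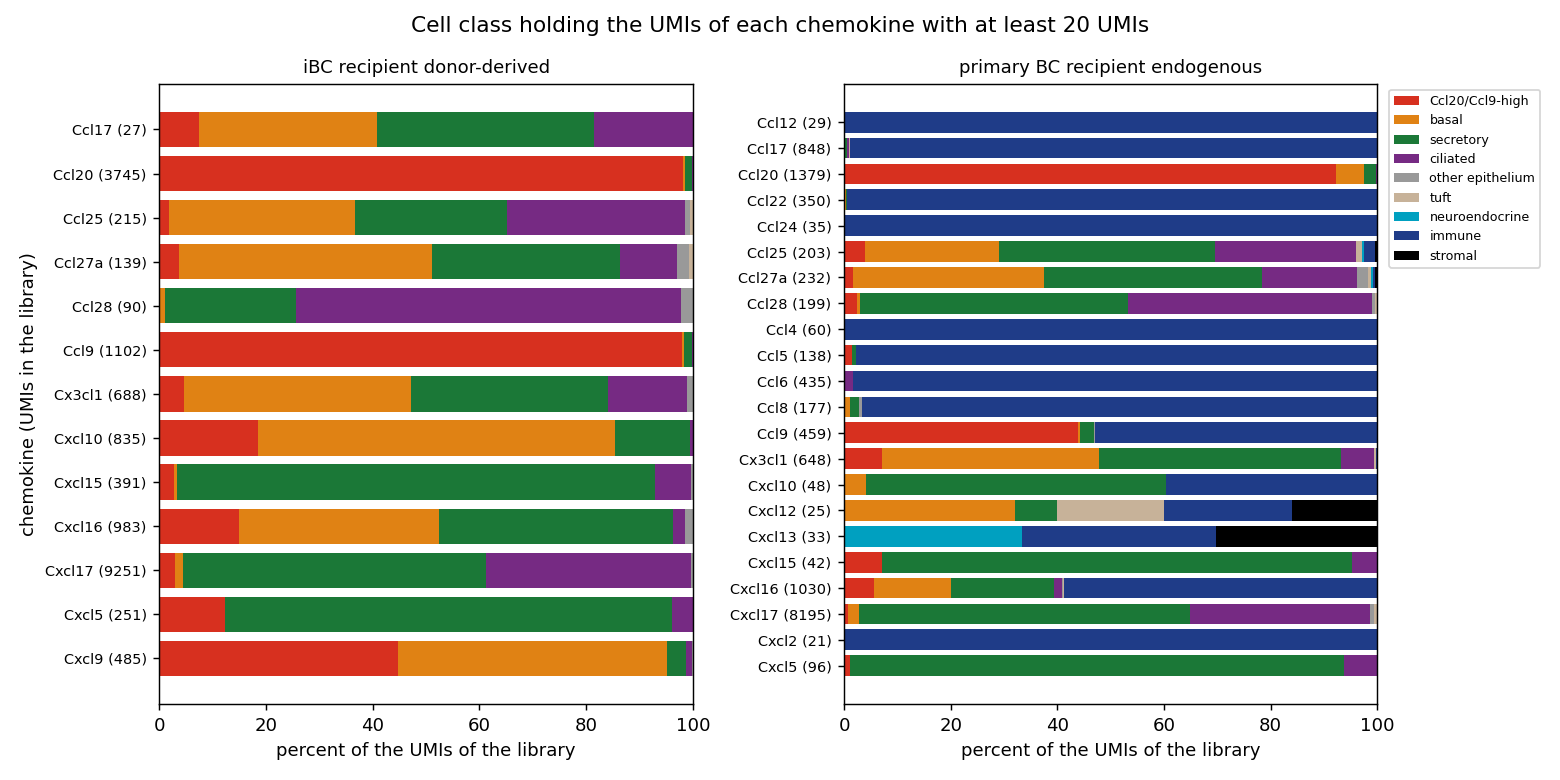
Share of each chemokine's UMIs held by each cell class (horizontal axis, percent of the library's UMIs of that gene) in donor-derived cells of the mouse with iBCs (left) and endogenous cells of the mouse with primary BCs (right), for genes with at least 20 UMIs. Ccl20 came from the cells chosen by it, Cxcl17 from secretory and ciliated cells, and 11 chemokines on the right had most of their UMIs in immune cells.

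In the mouse with iBCs, donor-derived basal cells held the interferon-inducible chemokines Cxcl9 and Cxcl10, the ligands of Cxcr3 on T cells and natural killer cells. Of 6 chemokines measured in basal cells, 2 were called higher, against 4.68% of all 6538 genes measured, and 1 lower, against 3.43%. Each called member reached 20 CPM only in the sum where it was higher. These counts are therefore a description and do not separate the family from other genes. Cxcl10 had 71.4 CPM in donor-derived cells and 0.747 CPM in endogenous cells, a ratio of 95.6 (37.1 to 352). These were 559 UMIs in 19 of 708 cells, against 4 UMIs in 2 of 677 cells, so 2.68% of donor-derived basal cells carried it. Secretory cells of the mouse with iBCs had 117 Cxcl10 UMIs in 6 donor-derived cells and 2 in endogenous cells (13.7 and 0.208 CPM), a ratio of 66.0 (17.9 to 552) at a level under 20 CPM. Donor-derived ciliated cells, of deeper median (11924 against 9056.5 UMIs), had 4 Cxcl10 UMIs in 1.49% of cells, each a single UMI. The 3 basal cells with the most Cxcl10 held 135, 120 and 76 UMIs, 59.2% of the sum. Cxcl9 had 245 UMIs in 11 donor-derived basal cells (31.3 CPM) and 0 UMIs in endogenous ones, at least 55.9-fold higher when 3 counts over the endogenous class are taken as the limit. Of these Cxcl9 UMIs, 59.6% were in 1 cell, and without that cell the level was under 20 CPM and the call was lost, at a ratio of at least 22.6. Cxcl10 overlaps Art3 on the other strand, and Cxcl9 overlaps no annotated gene.

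The Cxcl10 contrast depended on keeping Ccl20/Ccl9-high cells apart. Endogenous Ccl20/Ccl9-high cells of the mouse with iBCs held 226 Cxcl10 UMIs in 5 cells, up to 109 in 1 cell. With those cells returned to the class their other markers gave, the basal ratio was 2.34 for Cxcl10 and at least 71.1 for Cxcl9. Over all epithelium, 53 of 1576 donor-derived cells (3.36%) had a UMI of either gene, against 10 of 1777 endogenous cells (0.563%). Both genes were present together in 12 donor-derived and 0 endogenous cells. Either gene was seen, in the mouse with primary BCs, in 3 of 1803 donor-derived cells (0.166%) and 2 of 1280 endogenous cells (0.156%), and Cxcl9 in none of them.

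Gbp2 and Irf1, genes of the interferon-gamma branch, were set beside these chemokines in the same sums. Gbp2, an interferon-induced GTPase, was called higher in donor-derived cells of all 3 classes in the mouse with iBCs. It had 65.6 CPM in donor-derived cells and 13.997 CPM in endogenous basal cells, a ratio of 4.69 (3.67 to 6.06). Its ratio was 5.84 (4.24 to 8.19) in secretory and 4.07 (2.99 to 5.62) in ciliated cells. Irf1, an early target, had 71.3 CPM in donor-derived cells and 35.1 CPM in endogenous basal cells, a ratio of 2.03 (1.72 to 2.41), and was called higher there. Its ratios of 1.72 in secretory and 1.53 in ciliated cells were not called. With primary BCs, Irf1 was not called in any of the 3 classes, at ratios of 0.980, 1.08 and 0.734 in basal, secretory and ciliated cells, and Gbp2 stayed under 20 CPM. These genes were chosen with earlier results of these data known.

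In secretory cells of the mouse with iBCs, the chemokines called were Cxcl5, Cxcl15, Cxcl16 and Ccl28. Of 6 chemokines measured there, 3 were called higher in donor-derived cells, against 7.79% of all 5278 genes measured, and 1 lower, against 3.54%. Of those called, only Cxcl16 reached 20 CPM in both sums, so these counts too are a description. Cxcl15, a lung chemokine of the mouse also named lungkine, had 41.1 CPM in donor-derived cells and 4.89 CPM in endogenous cells, a ratio of 8.41 (6.19 to 11.7). A Cxcl15 UMI was seen in 30.3% of donor-derived cells and 5.12% of endogenous secretory cells (medians of 15891 and 14824 UMIs per cell), against 0.282% and 0% in basal cells (medians of 9056.5 and 7689 UMIs). Cxcl15 stood at 4.34 and 3.23 CPM in donor-derived and endogenous secretory cells of the mouse with primary BCs. Cxcl5, a Cxcr2 ligand, had 24.7 CPM in donor-derived cells and 5.00 CPM in endogenous cells, a ratio of 4.94 (3.59 to 6.91). Donor-derived and endogenous secretory cells of the mouse with primary BCs had Cxcl5 at 8.20 and 7.77 CPM, under the 20 CPM needed. Donor-derived and endogenous secretory cells of the mouse with iBCs held 50.6 and 23.7 CPM of Cxcl16, a ratio of 2.13 (1.81 to 2.52).

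The calls of Cxcl5 and Cxcl16 rested on the scaling. The median of all genes in the secretory comparison was 0.30 on the log2 scale, with a pseudocount of 5 CPM, against 0.90 over the 6 chemokines. Cxcl5 and Cxcl15 reached 20 CPM only in donor-derived cells and Ccl28 only in endogenous cells. The filter thus helped to set the median over the chemokines, and it is not read as a shift of the family. TMM scaling, with a factor of 1.24 between the libraries, left the Cxcl16 ratio at 1.73 and the Cxcl5 level under 20 CPM at a ratio of 3.996, and neither was called. The Cxcl15 ratio was then 6.80 and stayed called.

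Ccl28, a mucosal ligand of Ccr10 and Ccr3 that draws plasma cells and eosinophils, was lower in donor-derived cells of the mouse with iBCs in both classes where it was measured. Secretory cells held 2.58 CPM in donor-derived cells and 20.5 CPM in endogenous cells, 7.93-fold lower (5.09 to 12.95), with a Ccl28 UMI in 3.32% against 20.5% of cells. Ciliated cells held 17.7 and 57.7 CPM, 3.26-fold lower (2.48 to 4.35), with a UMI in 20.1% against 42.3% of cells. In basal cells Ccl28 had 1 UMI in each library, 0.141% and 0.148% of cells. Of 3 chemokines measured in ciliated cells, Ccl28 was the 1 called lower, against 4.65% of all 7122 genes, and 0 were called higher, against 3.51%. Ccl28 reached 20 CPM only in the endogenous sum there, so this count is a description. In the mouse with primary BCs Ccl28 stood at 14.05 CPM in donor-derived cells and 20.5 CPM in endogenous ciliated cells, a ratio of 0.686 (0.469 to 0.991), which was not called. Its secretory cells held 4.02 CPM in donor-derived cells and 8.73 CPM in endogenous cells, 2.17-fold lower (1.53 to 3.11), so the direction was the same, at levels under the 20 CPM needed for a call. The endogenous secretory level lies just above 20 CPM, and without the highest cell Ccl28 was no longer measured there, at a ratio of 0.113.

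In basal cells of the mouse with iBCs the chemokine called lower was Ccl20, the ligand of Ccr6. It had 2.17 CPM in donor-derived cells and 22.8 CPM in endogenous cells, 10.5-fold lower (6.29 to 18.6). No cell of either sum could hold more than 4 UMIs, because cells with 5 or more were set apart. With those cells returned, the ratio was 0.0753. Basal levels of Ccl20 in the mouse with primary BCs were 8.96 CPM in donor-derived cells and 12.1 CPM in endogenous cells.

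**Figure D3:**
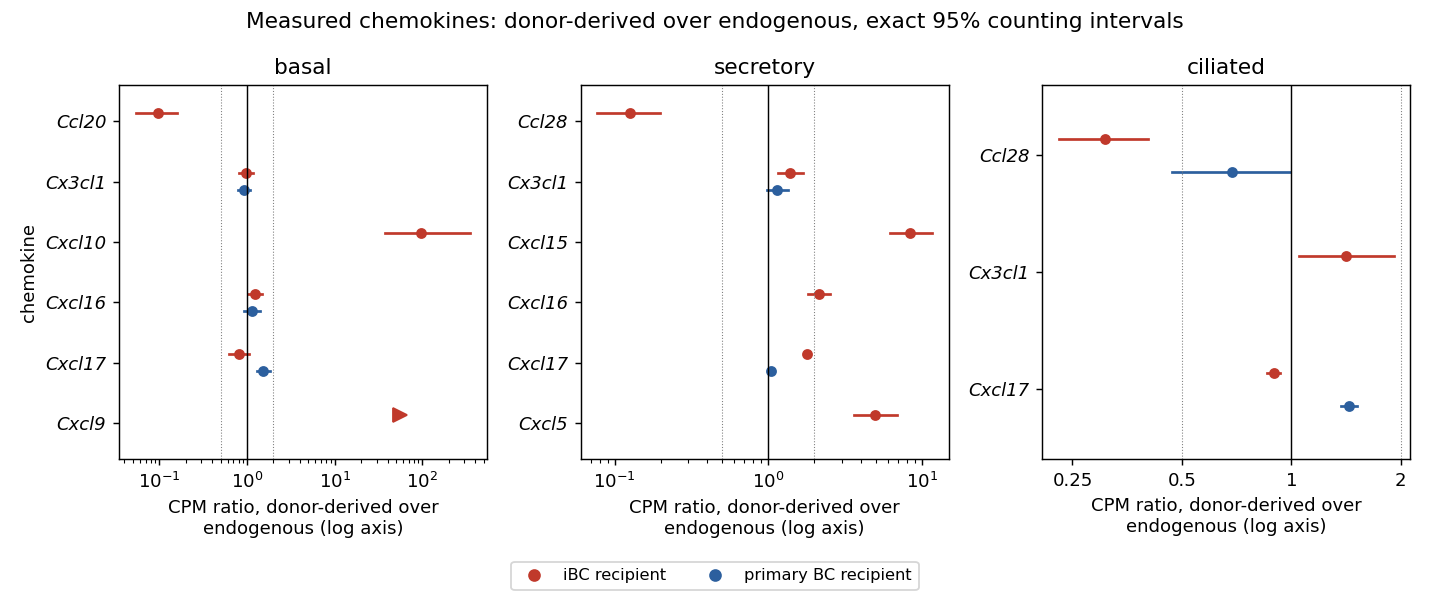
Ratio of CPM, donor-derived over endogenous (horizontal log axis), for each chemokine that reached 20 CPM in 1 or both sums, in the mouse with iBCs (red) and the mouse with primary BCs (blue); lines are exact 95% counting intervals, the arrowhead is a lower bound and dotted lines mark 2-fold. The mouse with iBCs has points past 2-fold on both sides in basal and secretory cells, and each point of the mouse with primary BCs lies within 2-fold.

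In the mouse with primary BCs, no measured chemokine was called between donor-derived and endogenous cells. The measured members were 3 in basal, 2 in secretory and 2 in ciliated cells, and 0 were called higher or lower in each. Over all genes measured, 0.141% were called higher and 0.737% lower in basal, 0.367% and 0.532% in secretory, and 0.434% and 0.289% in ciliated cells. So few members reached 20 CPM that these counts of 0 do not separate the family from other genes. With a call past 1.5-fold alone, basal Cxcl17 was 1 call. Median log2 ratios over the measured chemokines were 0.16, 0.12 and 0.05 in basal, secretory and ciliated cells, against 0.02, 0.09 and -0.03 over all genes. In the mouse with iBCs they were 0.12, 0.90 and -0.16, against 0.13, 0.30 and 0.08. There too, few members were measured, and most of those called reached 20 CPM in 1 sum only, so these medians are a description.

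Among the other genes of the pathway, receptors were scarce in epithelium. None of the 18 conventional chemokine receptors reached 20 CPM in basal, secretory or ciliated cells of either recipient. The atypical receptor Ackr3, which binds and removes Cxcl12, was measured in basal cells, at 22.7 CPM in donor-derived cells and 42.0 CPM in endogenous cells of the mouse with iBCs, and at 56.0 and 41.1 CPM in those of the mouse with primary BCs, and was not called. Of the 9 NF-kB feedback genes and subunits, 1 of 5 measured was called lower in basal cells of the mouse with iBCs (Nfkbiz, 17.1 against 36.4 CPM; 3.43% of all genes), 1 of 5 higher in secretory cells (Relb, 26.4 against 11.97 CPM; 7.79% of all genes) and 1 of 4 higher in ciliated cells (Nfkbia, 286 against 119 CPM; 3.51% of all genes). With primary BCs 0 of 4 were called in each class. Il13ra1, a receptor subunit for interleukin 13, was the 1 inducing receptor called, of 5 measured in basal, 6 in secretory and 7 in ciliated cells of the mouse with iBCs, where 3.43%, 3.54% and 4.65% of all genes were called lower. It was lower in donor-derived cells of all 3 classes: 32.7 against 85.7 CPM in basal, 22.6 against 80.4 CPM in secretory and 24.8 against 93.3 CPM in ciliated cells. Pf4, a chemokine without a Cxcl symbol, had 39.0 CPM in donor-derived cells and 0.625 CPM in endogenous secretory cells of the mouse with iBCs, a ratio of 62.5 (28.4 to 171).

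The Ccl20/Ccl9-high cells made up 2.98% of epithelial cells (2.20 to 3.95) in the donor-derived and 5.29% (4.30 to 6.43) in the endogenous library of the mouse with iBCs, and 2.11% (1.496 to 2.88) and 3.44% (2.51 to 4.59) in those of the mouse with primary BCs. When each cell was thinned to 3000 UMIs the shares were 1.65%, 3.27%, 0.555% and 0.859%, leaving out 6 shallower cells. In both recipients the donor-derived share was the lower one, thinned or not, though the unthinned intervals overlapped in the mouse with primary BCs. The gate is a range and not a boundary: 4, 26, 17 and 13 cells held 3 or 4 UMIs, just outside, and 2, 11, 6 and 5 cells held 5 or 6, just inside. These cells held 98.1%, 94.4%, 82.5% and 92.2% of the epithelial Ccl20 UMIs, and 98.0%, 96.9%, 75.4% and 93.1% of the epithelial Ccl9 UMIs, which the choice of cells fixes.

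Ccl20 and Ccl9 were not found in the same cells alike. Summed over the Ccl20/Ccl9-high cells, Ccl20 stood at 4238 CPM in donor-derived cells and 3488 CPM in endogenous cells of the mouse with iBCs, and at 1156 and 1945 CPM in those of the mouse with primary BCs. Ccl9 stood at 1246, 226, 157 and 307 CPM. A Ccl20 UMI was present in 45 of 47, 94 of 94, 38 of 38 and 44 of 44 cells, whereas a Ccl9 UMI was present in 30, 6, 7 and 4. These values chose the cells and are given as a description.

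The microfold label was checked against Spib, a transcription factor that microfold cells of the mouse gut need. Spib was found in 26 of 47 donor-derived cells of the mouse with iBCs (55.3%), against 6 of 94 endogenous ones (6.38%), and in 5 of 38 donor-derived cells (13.2%) and 4 of 44 endogenous cells (9.09%) of the mouse with primary BCs. In the epithelium outside the gate 0.297% to 0.850% of cells had a Spib UMI, at a median of 9453 to 14779 UMIs, against 8242 to 17676 inside it. Most Ccl20/Ccl9-high cells of 3 libraries thus had no Spib UMI, and they are called by their rule. Those with a Spib UMI made up 1.65% of donor-derived and 0.338% of endogenous epithelial cells in the mouse with iBCs. There the donor-derived share was thus the higher one, the reverse of the share of all Ccl20/Ccl9-high cells. The Ccl20/Ccl9-high cells behind it differed in depth, with medians of 17676 UMIs in donor-derived and 8242 UMIs in endogenous cells. No share with Spib at equal depth is given. In the mouse with primary BCs the shares with Spib were 0.28% and 0.31%. The cells without a Spib UMI held a median of 14, 17, 9 and 11 UMIs of Ccl20 plus Ccl9, against 63, 254, 35 and 102 in those with one, and a count of 0 in a cell does not show that the cell lacks Spib. Among cells without Spib, basal markers placed 6 of 21, 70 of 88, 24 of 33 and 28 of 40 in the basal class. The median level of the basal markers per Ccl20/Ccl9-high cell was 132 CPM in donor-derived cells of the mouse with iBCs, against 6628 CPM in endogenous ones, and 9987 and 9290 CPM in the mouse with primary BCs.

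**Figure D4:**
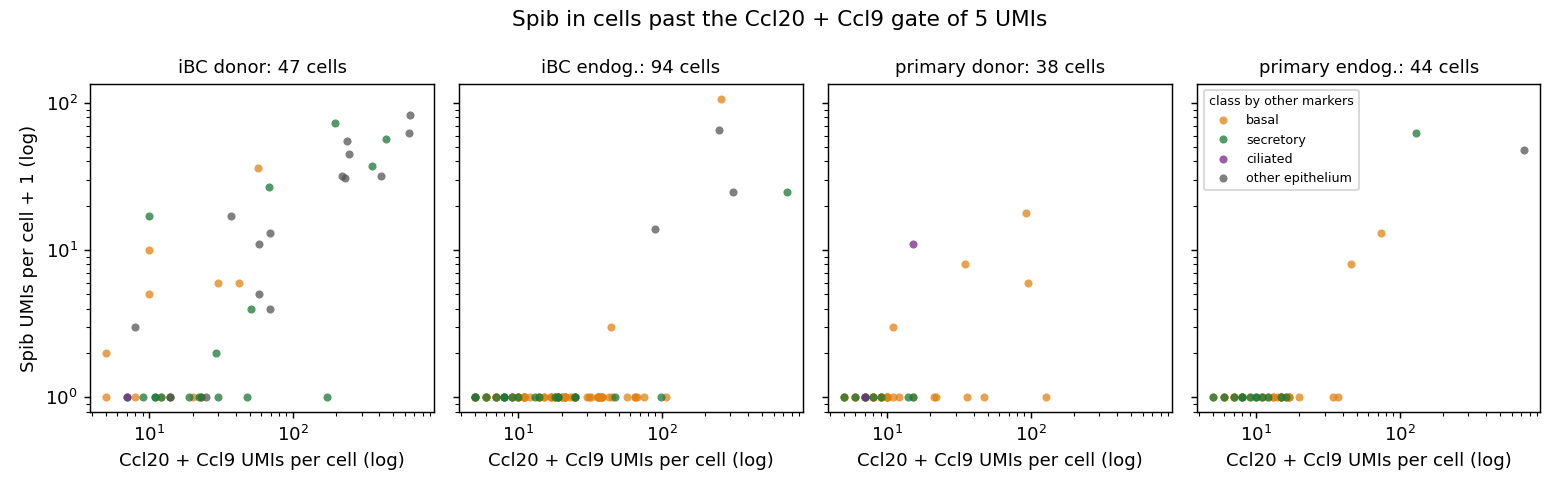
Each point is a Ccl20/Ccl9-high cell, with its Ccl20 plus Ccl9 UMIs on the horizontal and its Spib UMIs plus 1 on the vertical axis (both log), coloured by the class its other markers gave. Cells with Spib number 26, 6, 5 and 4 from left to right, and the remaining points lie on the bottom line.

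The cells were also split by Spib, and the split was made after the values were seen. Ccl20 and Ccl9 chose these cells, so a cell without Ccl9 entered only through Ccl20. Their values with and without Spib are therefore a description. Ccl9 was found in 23 of 26, 5 of 6, 5 of 5 and 4 of 4 cells with Spib, but in 7 of 21, 1 of 88, 2 of 33 and 0 of 40 cells without. Its level with Spib was 2156 CPM in donor-derived cells and 2021 CPM in endogenous cells of the mouse with iBCs, and 865 and 2136 CPM in the mouse with primary BCs, against 109, 1.14, 33.0 and 0 CPM without. Ccl20 was present in both kinds, at 6671, 13458, 2073 and 8258 CPM with Spib and 1203, 2240, 996 and 884 CPM without. Ccl6, the neighbour of Ccl9, was seen in 4, 1, 1 and 0 cells with Spib and in none without. All Cxcl9 UMIs of the Ccl20/Ccl9-high cells lay in cells with Spib, in 12 of 26 donor-derived cells (217 UMIs) and 1 of 6 endogenous cells (31 UMIs) of the mouse with iBCs. All Cxcl5 UMIs of the Ccl20/Ccl9-high cells lay in cells without it, with 31, 17, 35 and 1 UMIs. Sox8, a further regulator of gut microfold cells, had 105, 21, 5 and 25 UMIs in cells with Spib and 2, 2, 0 and 0 in cells without. Markers of immune cells were at 3 or more genes in 2, 1, 0 and 1 of the Ccl20/Ccl9-high cells, and Epcam, the epithelial adhesion molecule, was present in each of the 26, 6, 5 and 4 cells with Spib.

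Other chemokines were set against the rest of the epithelium of the same library, which mixes basal, secretory and ciliated cells. Of 6 measured in donor-derived cells of the mouse with iBCs, Cxcl5, Cxcl9, Cxcl10 and Cxcl16 were called higher in Ccl20/Ccl9-high cells, against 6.78% of all genes, and 0 lower, against 6.5%. Of 9 in endogenous cells, 7 were higher (Ccl27a, Cxcl1, Cxcl2, Cxcl9, Cxcl10, Cx3cl1 and Cxcl16), against 3.91%, and Cxcl17 was lower, against 7.47%. Most of these endogenous cells fell in the basal class by their other markers. Beside endogenous basal cells alone, Cx3cl1 stood at 59.0 against 38.1 CPM and Ccl27a at 22.4 against 13.8 CPM, both within 2-fold. Cxcl17 stood at 122 against 22.2 CPM, so it was higher than in basal cells. Cxcl1, Cxcl2, Cxcl9, Cxcl10 and Cxcl16 stayed past 2-fold there. The part of class composition in these calls was not tested. Some members reached 20 CPM only in the Ccl20/Ccl9-high cells of the mouse with iBCs. These were Cxcl5 and Cxcl9 in donor-derived cells, and Ccl27a, Cxcl1, Cxcl2, Cxcl9 and Cxcl10 in endogenous cells. The counts of calls are therefore a description. In the mouse with primary BCs, 2 of 4 were higher in donor-derived cells (Cxcl5 and Cxcl16), against 1.49%, and 2 of 3 in endogenous cells (Cx3cl1 and Cxcl16), against 1.6%. Cxcl17 was lower in both, against 3.82% and 7.27%. Cxcl16 was the member called higher in all 4 libraries: 169.5 against 41.1 CPM and 144 against 22.5 CPM in donor-derived and endogenous cells of the mouse with iBCs, and 94.98 against 21.0 CPM and 88.7 against 16.5 CPM in those of the mouse with primary BCs.

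Several of these calls came from few cells. In donor-derived Ccl20/Ccl9-high cells of the mouse with iBCs, 1 cell held 88 of 155 Cxcl10 UMIs and 1 held 18 of 31 Cxcl5 UMIs. Cxcl5 in donor-derived Ccl20/Ccl9-high cells of the mouse with primary BCs had 35 UMIs, of which 33 were in 1 of 2 cells. Cxcl2, a neutrophil attractant, had 51 UMIs in 4 endogenous cells of the mouse with iBCs, with 40 in 1 cell and none in the rest of the epithelium. Cxcl1, its neighbour, was broader, with 58 UMIs in 15 cells. Cxcl9 in the same library had 31 UMIs, all in 1 cell.

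Part of the NF-kB list of 9 genes was called higher in these cells. In the same order of libraries these were 6 of 9, 6 of 9, 5 of 8 and 4 of 7 measured, against 6.78%, 3.91%, 1.49% and 1.6% of all genes, and 0 were lower. Relb, Nfkb2, Nfkbia and Birc3 were called in all 4 libraries, and Nfkb1, Rela and Nfkbiz in none. Relb, a subunit of the alternative pathway, was 5.79, 7.22, 8.34 and 7.87 times its level in the rest of the epithelium, and Nfkbia, the inhibitor that NF-kB induces, 3.93, 4.42, 4.45 and 2.30 times. Of the microfold list without Ccl20 and Ccl9, 8 of 9, 5 of 9, 4 of 7 and 5 of 9 measured were called higher, beside the same shares of all genes, and Gp2 was lower in endogenous cells of the mouse with primary BCs. In donor-derived Ccl20/Ccl9-high cells of the mouse with iBCs, Gp2 had 0 UMIs, against 199 UMIs (9.78 CPM) in the rest of the epithelium. At under 20 CPM it was not among the 9 measured there. Both lists were set against the rest of the epithelium, which mixes basal, secretory and ciliated cells. Ccl20, whose window held an NF-kB type motif, also helped to choose these cells. The parts of class composition and of this choice in the calls of both lists were not tested.

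Immune cells held a different set, and it was read mainly in the endogenous library of the mouse with primary BCs, with 68 immune cells. Ccl17 and Ccl22, ligands of Ccr4, stood at 976 and 405 CPM there. They came from few cells: Ccl17 had 838 UMIs in 7 cells and Ccl22 had 348 UMIs in 6. The 5 cells with most Ccl17 held 242, 236, 173, 97 and 79 UMIs, and 4 of these also held 62 to 96 Ccl22 UMIs and carried the label dendritic by their markers. The cell with 236 UMIs of Ccl17 had no Ccl22 and was placed with macrophages or monocytes.

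In the donor-derived library of the mouse with primary BCs, 354 of 357 Ccl17 UMIs and all 100 Ccl22 UMIs were in 1 immune cell. This cell held 10 UMIs of Ptprc, the leukocyte antigen CD45, and 0 UMIs of EGFP, in a library sorted as GFP-positive. It was not used in any comparison. In epithelium Ccl17 was near 1 UMI per positive cell, with 27 UMIs in 27 cells of the donor-derived library of the mouse with iBCs.

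Macrophages or monocytes, 51 cells in the endogenous library of the mouse with primary BCs, held most of the other immune chemokines. Ccl6, a Ccr1 ligand, had 668 CPM in 36 of 51 cells and Ccl9 379 CPM in 31 cells, so Ccl9 was an immune as well as an epithelial chemokine. Cxcl16 had 838 CPM in 45 cells. Ccl8 had 284 CPM in 4 cells, Ccl4 99.7 CPM in 17 cells, Ccl24, an eosinophil attractant, 58.2 CPM in 5 cells, and Ccl12, a Ccr2 ligand, 48.2 CPM in 12 cells. Ccl5 was found mainly in dendritic cells: 107 of its 138 UMIs in the library were in 1 cell, which also held 22 UMIs of the dendritic receptor Ccr7. Receptors were also present: Cx3cr1 at 650 CPM and Ccr2 at 497 CPM in macrophages or monocytes. Xcr1 stood at 514 CPM in the 17 dendritic cells. Xcr1 and Ccr7 are among the markers that gave the dendritic label, so their presence there is a description. Xcl1, the ligand of Xcr1, had 0 UMIs in both libraries of this mouse.

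The 26 immune cells of the mouse with iBCs gave other leading members. Ccl1, a Ccr8 ligand, had 159 UMIs, all in 1 T or innate lymphoid cell with 12 UMIs of Cd3e, and the same cell held 9 of the 10 Xcl1 UMIs of the series. Cxcl9 had 32 UMIs in 6 cells and Cxcl16 54 UMIs in 13 cells. Xcr1, the receptor of Xcl1, stood at 503 CPM in 12 dendritic cells, whose label it helped to give. Ccr6, the receptor of Ccl20, had 12 UMIs in these 26 cells (41.9 CPM) and 0 UMIs in the 68 immune cells of the mouse with primary BCs, where the limit of 3 counts is 3.49 CPM. The make-up of the immune cells differed. By their markers the 68 were macrophages or monocytes and dendritic cells, while the 26 included a T or innate lymphoid cell. The part of this in the Ccr6 counts was not tested.

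The remaining members were low. Ccl27a, a Ccr10 ligand of skin that overlaps Il11ra1 on the other strand, lay between 4.08 and 13.98 CPM in basal, secretory and ciliated cells of all 4 libraries and reached 22.4 CPM in endogenous Ccl20/Ccl9-high cells of the mouse with iBCs. Ccl25, the ligand of Ccr9, lay between 4.27 and 19.6 CPM in those 3 classes and overlaps Elavl1 on the other strand. The 10 members detected without reaching 20 CPM and 20 UMIs in a sum of at least 20 cells were Ccl2, Ccl3, Ccl7, Ccl11, Ccl25, Cxcl3, Cxcl12, Cxcl13, Cxcl14 and Xcl1.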

How the data were processed

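Cells of 2 mouse tracheas were profiled on the 10x Chromium system in 4 libraries. The deposited matrices hold raw UMI counts per gene and barcode, already reduced to cells by a rule that is not given in the sources used here. The submitters' processing notes name Seurat, STARsolo and Cell Ranger and the build GRCm38; their versions and roles, and whether counting used strand, are not given in the sources used here. Library totals were 21504563 to 26625123 UMIs.

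Barcodes with under 500 genes or over 20% mitochondrial UMIs (160) and doublets called per library with Scrublet in scanpy 1.11.5 (82, or 0.568% to 2.38% of barcodes) were removed. Classes were assigned in order. Immune cells had at least 3 immune genes and more immune than epithelial UMIs (Lyz2 was left out, since secretory cells held it), stromal cells at least 5 collagen UMIs, neuroendocrine cells at least 10 marker UMIs and tuft cells at least 2 marker genes. Other cells with at least 5 UMIs of Ccl20 plus Ccl9 were set apart. Ciliated (2000 CPM of markers), secretory (30000 CPM) and basal (1000 CPM) cells followed. These limits were set after seeing the data. Within 1.5-fold of their own limit lay 0 to 29 basal, 17 to 120 secretory and 1 to 13 ciliated cells per library. Secretory cells also held basal markers, at medians of 702 and 1219 CPM in donor-derived and endogenous cells of the mouse with iBCs and of 6218 and 3925 CPM in those of the mouse with primary BCs.

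The UMIs of each class in each library were added up and expressed as CPM, with exact Poisson 95% intervals. Ratios carry exact conditional binomial and shares exact Clopper-Pearson 95% intervals, all for counting error only. Where a sum was 0, the ratio was taken against 3 counts over that class. With 1 library per group no test was made. The calculation was tested on simulated data. Members were described if a sum of at least 20 cells held 20 CPM and 20 UMIs, and named in a comparison if called or near a called one in the genome or by receptor. The members and gene lists were chosen with earlier results of these data known. Positions came from GENCODE vM21 (37 of 44 members found) and promoters from RefSeq GRCm38.p6. Alternatives were TMM scaling (edgeR 4.0.16), other filters on low values and cells, doublets kept, other gates, pseudocounts and call limits, and per-cell means. Results for some genes of the lists are not reported here.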

Additional observations from a re-analysis of the deposited data

How the results depend on the processing

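Of the 8 called ratios, all in the mouse with iBCs, 8 kept their call with doublets kept, without the cell filter, with the Ccl20/Ccl9-high cells put back, with stricter class limits, with lower filters on level and with a 1.5-fold limit, as did the 7 that a mean of per-cell CPM could give (endogenous Cxcl9 was 0); 6 did with TMM scaling and 6 without the highest cell, and no direction reversed. A kept call does not mean an unchanged ratio. With the Ccl20/Ccl9-high cells put back, the basal Cxcl10 ratio fell from 95.6 to 2.34, just past the limit of 2-fold. Leaving out the highest cell and the stricter class limits were chosen after seeing the data. With TMM scaling (factors of 1.09 in basal and 1.07 in ciliated cells of the mouse with iBCs), 1 chemokine was higher in secretory cells of the mouse with iBCs. With a filter of 5 CPM, 2 were higher in its ciliated cells, and 1 (Ccl28) was lower in secretory cells of the mouse with primary BCs. With no filter, 3 were lower in basal, 6 higher in secretory and 2 higher in ciliated cells of the mouse with iBCs, and 2 (Ccl28 and Cxcl10) lower in secretory cells of the mouse with primary BCs. The 1.5-fold limit gave 1 higher in basal cells of the mouse with primary BCs. Without the highest cell, 1 was higher in basal and 0 lower in secretory cells of the mouse with iBCs, since levels fell under the filter.

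The share of Ccl20/Ccl9-high cells followed the gate. A gate of 3 UMIs gave 6.75% for endogenous cells of the mouse with iBCs and 3.05% for donor-derived cells of the mouse with primary BCs. A gate of 10 gave 3.88% for endogenous cells of the mouse with iBCs, and 1.05% for donor-derived and 2.19% for endogenous cells of the mouse with primary BCs. Thinned to 3000 UMIs, the shares were 1.65% and 3.27% in donor-derived and endogenous cells of the mouse with iBCs and 0.555% and 0.859% in those of the mouse with primary BCs. Each comparison was made within 1 recipient and so holds 1 pair of libraries, with no replicate. A fit over both recipients with the recipient as a block was not run, since it would average different donor cells.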

Other observations

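Few cells outside the main classes held further chemokines. Cxcl13, the ligand of Cxcr5 on B cells, was found in neuroendocrine cells: 49, 8, 0 and 0 UMIs in the 4 donor-derived cells of the mouse with primary BCs, 32, 9 and 1 UMIs in the 3 endogenous cells of the mouse with iBCs and 6, 4 and 1 UMIs in the 3 endogenous cells of the mouse with primary BCs. In the endogenous library of the mouse with primary BCs the other Cxcl13 UMIs were 12 in immune cells and 10 in stromal cells, of 33 in all. The 4 donor-derived cells also held 5 to 13 UMIs of EGFP. Over the whole data Cxcl13 had 134 UMIs, of which 57 were in the donor-derived library of the mouse with primary BCs, all in 2 of these neuroendocrine cells.

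Stromal cells, recognised by collagen RNA, held Cxcl12, the ligand of Cxcr4, at 16 UMIs in 4 of 4 endogenous cells of the mouse with iBCs and at 4 UMIs in 3 of 6 endogenous cells of the mouse with primary BCs. Ccl11, an eosinophil attractant, had 14 UMIs in 1 of those 6 cells. Cxcl12 was also seen in basal cells, at 0.639 CPM in donor-derived cells and 4.11 CPM in endogenous cells of the mouse with iBCs.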
